A study of Mus musculus with 18 samples.

Results

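Oligodendrocyte progenitor cells (OPCs) divide in the brain and spinal cord and give rise to the oligodendrocytes that wrap axons in myelin. The effect of blocking MEK in them was measured by RNA-seq in 6 of the 18 samples of a mouse series. The samples were chosen by their labels. In 3 of them, lettered A to C, CRISPR-Control OPCs were kept for 14 hours in medium with 300 nM AZD8330, which inhibits MEK1 and MEK2. In the other 3, also lettered A to C, the same cells were kept for 14 hours in medium with DMSO, the solvent. All of these cells were made from epiblast stem cells and had been grown for a day before the switch of medium. The growth medium held the growth factors Fgf2 and Pdgfa, and the labels do not say whether the medium with drug or DMSO did too. The labels do not say what the CRISPR control targets, how many clones were used or whether each library is a culture of its own. The p-values therefore speak only to the spread among these libraries, which may be technical. The same treatment of CRISPR-Vhl OPCs (AZD8330 and DMSO, 3 samples each) entered the fit and was used for tests of a difference between the genotypes.

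Fgf2 and Pdgfa bind receptor tyrosine kinases, which activate RAS, the RAF kinases, MEK1 and MEK2 and then the ERK kinases. ERK phosphorylates transcription factors, and among the genes it induces are phosphatases and Sprouty proteins that limit the pathway in turn. In OPCs, mitogens that act through this pathway are known to keep cells dividing, and ERK activity is also known to act later, in the growth of myelin. AZD8330 blocks the kinase activity of MEK and not its mRNA, so the labels can be checked only through genes downstream.

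Libraries held 13810102 to 15597201 estimated counts with AZD8330 and 14263974 to 16349676 with DMSO. Mitochondrially encoded genes took 4.99% to 5.25% of the counts with AZD8330 and 4.51% to 5.22% with DMSO, and the 10 most abundant genes took 7.33% to 7.67% and 6.18% to 6.47%. Levels below are CPM, counts scaled to a common library total, given in the order A, B, C, and are not corrected for transcript length, so they compare samples and not genes. Changes are log2 of AZD8330 over DMSO with their standard error (SE), from edgeR's quasi-likelihood test. A gene is said to rise or fall only where its p was under 0.05 after Benjamini-Hochberg adjustment, for which all 13450 tested genes counted. Defining markers of OPCs were present in all 6 libraries: Olig2 had 1144, 1139 and 1126 CPM with AZD8330, against 1297, 1309.7 and 1378 CPM with DMSO, and Pdgfra had 89.5, 85.5 and 79.4 CPM with AZD8330, against 30.8, 30.7 and 43.9 CPM with DMSO.

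Most expressed genes moved. Of 13450 tested genes, 8172 changed (60.8%), 3911 of them upward (29.1%) and 4261 downward (31.7%). By at least 2-fold, 1416 genes rose (10.5%) and 1295 fell (9.63%). The median log2 change over all tested genes was −0.01, and the median size of a change, whatever its sign, was 0.48. Groups that do not overlap, with all 3 AZD8330 libraries on one side of all 3 DMSO libraries, were seen for 66.4% of tested genes. With such a background a single changed gene says little by itself, and the gene groups below are read against these percentages. The lowest list medians were those of G2 and M phase (−2.97) and S phase (−2.13), and the highest those of the astrocyte (1.18) and oligodendrocyte maturation (1.15) lists.

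**Figure D1:**
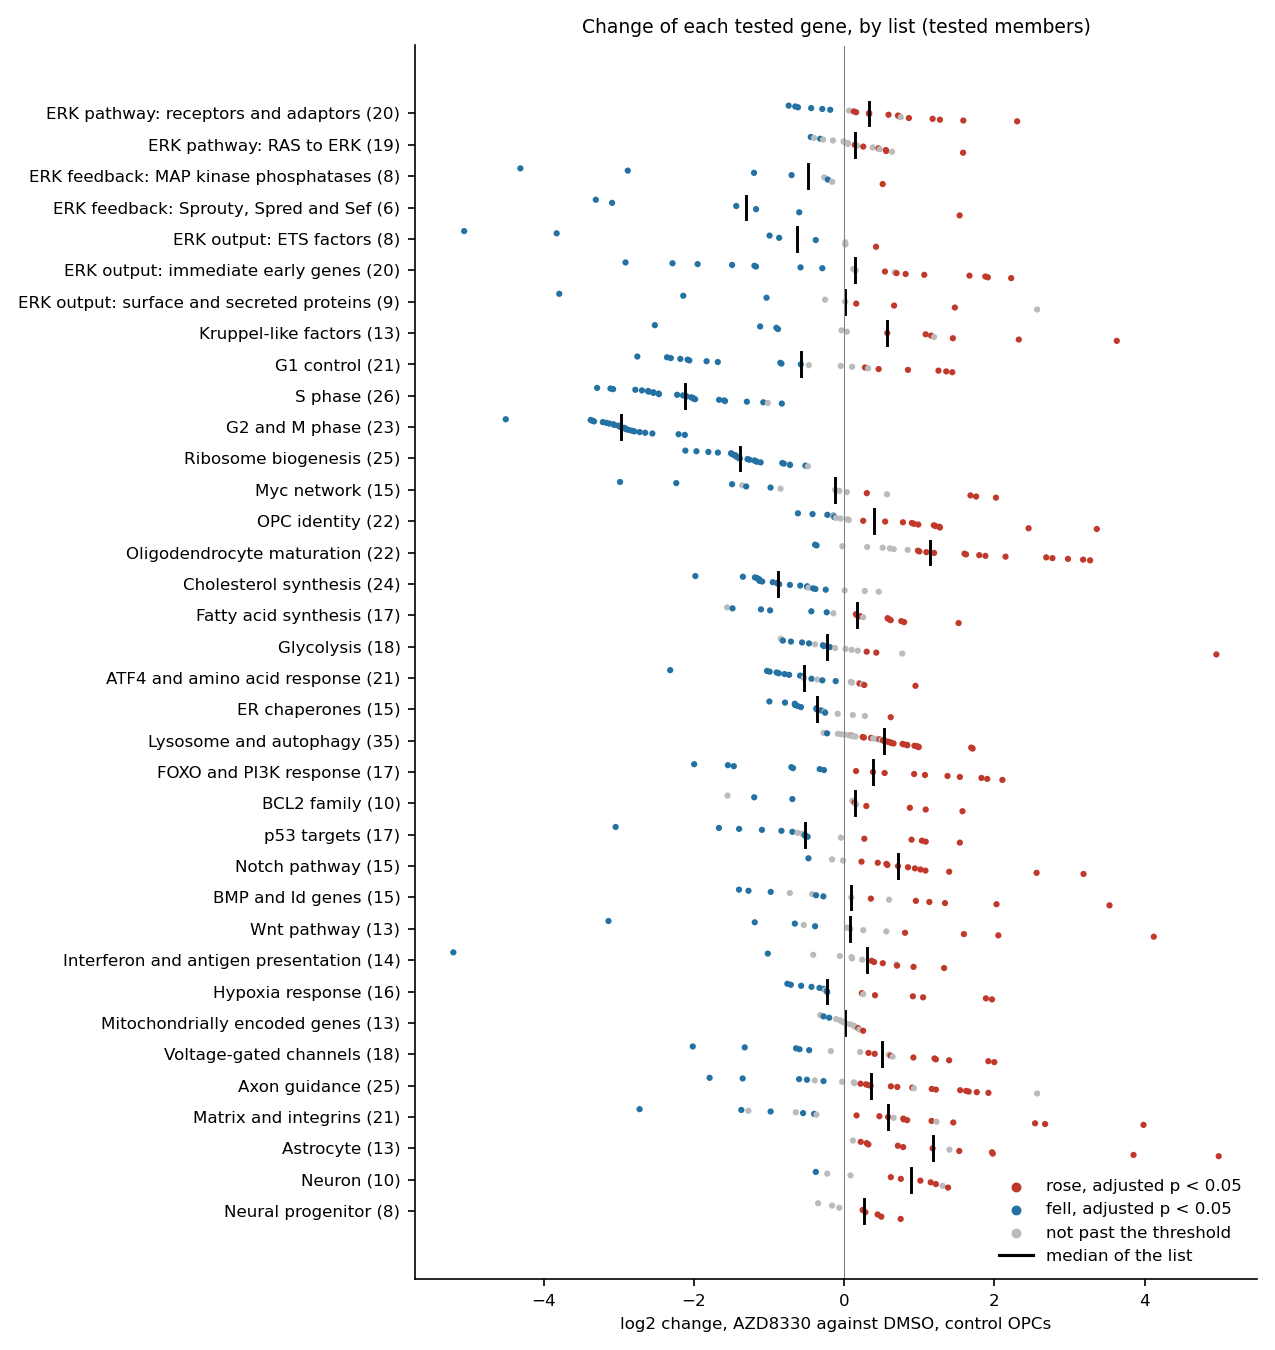
Log2 change of each tested gene between AZD8330 and DMSO in control OPCs (x axis) for the lists with at least 5 tested members (rows, number tested in brackets). Red points rose, blue points fell, grey points did not pass the threshold of 0.05 on the adjusted p, and black ticks mark the medians, which run from −2.97 for G2 and M phase to 1.18 for astrocyte markers.

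Some feedback inhibitors of the pathway were among the steepest falls of its own genes. Dusp6, a phosphatase that removes the activating phosphates from ERK in the cytoplasm, fell 19.9-fold, the fifth of the 15 falls named for their size. Upstream sequences of 4 responding genes are shown here to place the changes on the genome, with the 250 bases before the annotated start from RefSeq on GRCm38.p6, read 5′ to 3′ on the strand of the gene. Each has the smallest p of its list among the genes matched by symbol in the RefSeq promoter table used here: Dusp6 for the phosphatases (chr10:99262981-99263230, plus strand), Spry1 for the Sprouty genes (chr3:37639697-37639946, plus strand), Gabpa for the ETS factors (chr16:84834874-84835123, plus strand) and Zfp36l1 for the immediate early genes (chr12:80113014-80113263, minus strand). Capitals mark matches, on either strand, to the motifs searched for: the ETS motif CCGGAA, the AP-1 motif TGANTCA, the E-box CACGTG and the serum response element (CArG box).
Dusp6: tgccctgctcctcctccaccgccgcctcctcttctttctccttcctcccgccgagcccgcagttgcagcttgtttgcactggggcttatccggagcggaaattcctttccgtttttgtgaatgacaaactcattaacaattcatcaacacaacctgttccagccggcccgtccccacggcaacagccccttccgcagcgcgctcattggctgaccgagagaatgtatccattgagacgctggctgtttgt
Spry1: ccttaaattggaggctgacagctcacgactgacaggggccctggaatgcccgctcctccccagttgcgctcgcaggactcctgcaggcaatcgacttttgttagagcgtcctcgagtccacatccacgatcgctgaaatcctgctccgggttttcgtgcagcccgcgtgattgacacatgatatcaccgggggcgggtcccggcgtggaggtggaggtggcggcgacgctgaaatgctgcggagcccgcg
Gabpa: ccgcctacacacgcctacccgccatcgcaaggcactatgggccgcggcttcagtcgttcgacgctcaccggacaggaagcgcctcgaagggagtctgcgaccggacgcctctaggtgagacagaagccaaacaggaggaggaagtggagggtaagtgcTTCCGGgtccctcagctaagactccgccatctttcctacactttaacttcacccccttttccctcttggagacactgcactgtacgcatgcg
Zfp36l1: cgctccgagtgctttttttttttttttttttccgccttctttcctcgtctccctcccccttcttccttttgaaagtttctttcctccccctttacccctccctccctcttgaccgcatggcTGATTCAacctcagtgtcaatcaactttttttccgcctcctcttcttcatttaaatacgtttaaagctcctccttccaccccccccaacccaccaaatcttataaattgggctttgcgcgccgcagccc
In the same window, 12% of 32851 RefSeq promoters hold the ETS motif, 6.75% the AP-1 motif, 6.02% the E-box and 1.47% the CArG box. The Gabpa sequence holds 1 ETS match at position −92 and the Zfp36l1 sequence 1 AP-1 match at position −129, counted from the first base of the match to the start site. No match was found in the Dusp6 and Spry1 windows, which says only that these letters are not in these 250 bases.

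Within the phosphatase list, 5 of 8 tested genes fell, 3 of them by at least 2-fold, and 1 rose (median −0.48). Dusp6 had 20.97, 20.5 and 21.3 CPM with AZD8330, against 425, 406 and 418 CPM with DMSO (log2 −4.31 ± 0.05, edgeR adjusted p = 1.36e-14). Every AZD8330 library lay far below every DMSO library, and the spread within each group was small. Dusp4, a nuclear phosphatase, had 1.59, 1.96 and 1.22 CPM with AZD8330, against 11.2, 13.3 and 10.9 CPM with DMSO (log2 −2.88 ± 0.25), and Dusp1, a nuclear phosphatase that also acts on p38 and JNK, had 4.702, 6.67 and 6.903 CPM with AZD8330, against 13.2, 15.01 and 13.8 CPM with DMSO (log2 −1.20 ± 0.17). Dusp7, a cytoplasmic relative of Dusp6, fell less, by 1.63-fold (log2 −0.70 ± 0.04). All 3 of these genes, picked by their small p, showed separate groups, as did 66.4% of all tested genes.

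Sprouty proteins block the step from receptors to RAS. Of 6 tested members of the Sprouty, Spred and Sef list, 5 fell, 4 of them by at least 2-fold, and 1 rose (median −1.31). Spry1 had 26.7, 26.2 and 26.1 CPM with AZD8330, against 228, 218 and 227 CPM with DMSO (log2 −3.09 ± 0.04, edgeR adjusted p = 1.51e-14). Spry4 had 14.6, 19.03 and 15.5 CPM with AZD8330, against 159, 164 and 164 CPM with DMSO (log2 −3.31 ± 0.08). For both, the AZD8330 libraries held several times less than the DMSO libraries, with no overlap. Groups also did not overlap for 66.4% of all tested genes. Spry2 kept more of its level, at 96.3, 101 and 101 CPM with AZD8330, against 227, 225 and 221 CPM with DMSO (log2 −1.17 ± 0.03). Il17rd, which encodes the FGF pathway inhibitor Sef, went the other way, with 156, 159 and 165 CPM with AZD8330, against 54.3, 55.3 and 55.9 CPM with DMSO (log2 1.54 ± 0.05).

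**Figure D2:**
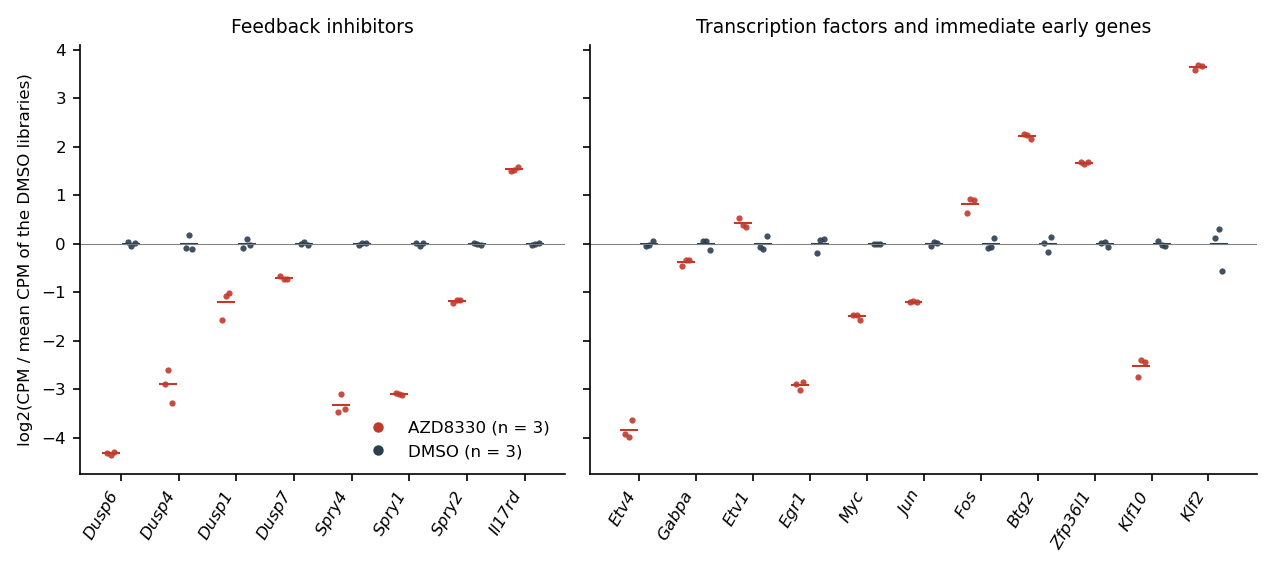
Level of ERK feedback genes (left) and of transcription factor and immediate early genes (right) in each control OPC library, as log2 of CPM over the mean CPM of the 3 DMSO libraries (y axis). Red points are the 3 AZD8330 libraries and dark points the 3 DMSO libraries, with a bar at each group mean. Dusp6, Etv4, Spry4 and Spry1 lie lowest, at log2 −4.31, −3.83, −3.31 and −3.09, while Il17rd, Btg2, Zfp36l1 and Klf2 lie above their DMSO libraries.

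Most mRNAs of the steps from RAS to ERK moved little. Of 19 tested genes 6 rose, 1 of them by at least 2-fold, 2 fell, none by that much, and 11 did not pass (median 0.14). Over all tested genes 29.1% rose and 31.7% fell. Map2k1, which encodes MEK1, had 295, 292 and 298 CPM with AZD8330, against 279, 289 and 288 CPM with DMSO, and the groups differed by log2 0.05 ± 0.03 (edgeR adjusted p = 0.214). Map2k2, which encodes MEK2, fell (log2 −0.45 ± 0.05). Nf1, whose product neurofibromin switches RAS off, rose (log2 0.46 ± 0.04), and so did the ERK-activated kinase gene Rps6ka2 (log2 0.56 ± 0.07). None of these 3 changes reached 2-fold.

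Receptors and adaptors rose more often than they fell: 12 of 20 tested genes rose, 4 of them by at least 2-fold, and 6 fell, none by that much (median 0.33). The shares of all tested genes were 29.1% up and 31.7% down. Erbb4, a receptor for neuregulins, had 378, 366 and 366 CPM with AZD8330, against 75.5, 75.4 and 73.9 CPM with DMSO (log2 2.30 ± 0.04). Ntrk2, the receptor for the neurotrophin BDNF, had 837, 815 and 819 CPM with AZD8330, against 271, 276 and 276 CPM with DMSO (log2 1.59 ± 0.03). In both cases the libraries of a group agreed closely and the groups lay far apart. Pdgfra, the receptor for Pdgfa, rose 2.42-fold (log2 1.28 ± 0.12), Fgfr3 rose 2.26-fold (log2 1.18 ± 0.08), and Erbb3, a partner of other neuregulin receptors, rose 1.82-fold (log2 0.86 ± 0.19). The docking protein gene Gab1 rose by log2 0.59 ± 0.03.

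Among the ETS factors, transcription factors that ERK is known to activate, 5 of 8 tested genes fell and 1 rose (median −0.62). Etv4 had 15.1, 14.4 and 18.3 CPM with AZD8330, against 219, 222 and 237 CPM with DMSO (log2 −3.83 ± 0.08, edgeR adjusted p = 5.19e-13). Every AZD8330 library lay far below every DMSO library, and groups were separate for 66.4% of all tested genes. Etv5, a relative of Etv4, was barely detected, with 2 estimated counts in all over the AZD8330 libraries and 80 over the DMSO libraries. The fall of Etv5 did not pass without AZD8330 library A or B (adjusted p = 0.0746 and 0.0736, edgeR's quasi-likelihood test). Gabpa fell by log2 −0.38 ± 0.06 and Elk3 by log2 −0.87 ± 0.25, whereas Etv1, the third member of the Etv4 and Etv5 group, rose: it had 142, 129.5 and 125 CPM with AZD8330, against 94.3, 92.2 and 109.6 CPM with DMSO (log2 0.42 ± 0.08).

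Immediate early genes, which respond to growth factors within the first hour, split evenly at 14 hours. Of 20 tested genes, 8 rose, 5 of them by at least 2-fold, and 8 fell, 6 of them by at least 2-fold (median 0.15). Over all tested genes 29.1% rose and 31.7% fell, with 10.5% and 9.63% by at least 2-fold. Egr1, a zinc finger transcription factor, had 5.46, 5.04 and 5.68 CPM with AZD8330, against 35.8, 42.9 and 43.3 CPM with DMSO (log2 −2.91 ± 0.13). Myc, a transcription factor for growth genes, had 87.2, 86.97 and 81.4 CPM with AZD8330, against 239, 241 and 240.2 CPM with DMSO (log2 −1.49 ± 0.04), and Jun, a subunit of AP-1, had 111, 112 and 111 CPM with AZD8330, against 246, 259.6 and 259 CPM with DMSO (log2 −1.20 ± 0.04). All 3 genes were low in every AZD8330 library. Fos, the partner of Jun in AP-1, was instead higher, with 10.99, 13.5 and 13.2 CPM with AZD8330, against 6.74, 6.84 and 7.796 CPM with DMSO (log2 0.82 ± 0.14). Btg2, which restrains cell division, had 337, 334 and 314 CPM with AZD8330, against 70.8, 62.5 and 77.7 CPM with DMSO (log2 2.22 ± 0.08), and Zfp36l1, which binds AU-rich mRNAs and speeds their decay, had 243, 234 and 242 CPM with AZD8330, against 76.6, 77.2 and 72.4 CPM with DMSO (log2 1.67 ± 0.04). For Zfp36l1, 60% of the 31-base words of its transcripts also occur in another gene and none of its 6 values was a whole number.

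Among 13 Kruppel-like factors, 6 rose and 4 fell (median 0.57), beside 29.1% and 31.7% of all tested genes. Klf2 gave the largest rise of the list, with 41.5, 44.5 and 43.9 CPM with AZD8330, against 3.75, 4.29 and 2.36 CPM with DMSO (log2 3.63 ± 0.15). Klf13 rose by log2 1.16 ± 0.04 and Klf7 by log2 1.08 ± 0.05. Klf10, a factor induced by TGF-beta, fell, with 20.3, 25.9 and 25.2 CPM with AZD8330, against 142, 135 and 133 CPM with DMSO (log2 −2.52 ± 0.08). Of 9 tested genes for surface and secreted proteins that ERK is known to induce, 3 rose and 3 fell, shares near those of all tested genes. Cd44, a receptor for hyaluronan, fell by log2 −1.03 ± 0.06, and the low-level genes Epha2 and Timp1 fell by log2 −3.79 ± 0.51 and log2 −2.14 ± 0.35. Plat, which encodes tissue plasminogen activator, rose by log2 1.47 ± 0.04.

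Genes of DNA replication and mitosis fell together. In the S phase list 25 of 26 tested genes fell, 24 of them by at least 2-fold, and none rose (median −2.13), beside 9.63% of all tested genes that fell by that much. In the G2 and M phase list all 23 tested genes fell by at least 2-fold (median −2.97). The summed level of the S phase list was 639 to 653 CPM in AZD8330 libraries and 2955 to 3188 CPM in DMSO libraries, and that of the G2 and M phase list was 587 to 631 CPM and 4316 to 4965 CPM. In these bulk samples, fewer cells of a type and less RNA per cell cannot be told apart.

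Mki67, the proliferation marker Ki-67, had 137, 132 and 117 CPM with AZD8330, against 1054, 1064 and 918 CPM with DMSO (log2 −2.97 ± 0.08). Top2a, the topoisomerase that untangles chromosomes, had 138, 129.7 and 139 CPM with AZD8330, against 1082, 1083 and 933 CPM with DMSO (log2 −2.93 ± 0.08). In both genes DMSO library C was the lowest of its group and still several times higher than any AZD8330 library. Ccna2, which encodes cyclin A2, fell by log2 −2.91 ± 0.07, and the spindle gene Tpx2 by log2 −2.80 ± 0.08. Of the helicase subunits that open origins of replication, Mcm2 fell by log2 −2.54 ± 0.06, Mcm4 by log2 −2.47 ± 0.07 and Mcm5 by log2 −2.78 ± 0.06. The genes for nucleotide supply followed, with Rrm1, the large subunit of ribonucleotide reductase, down by log2 −2.15 ± 0.06 and the thymidine kinase gene Tk1 down 14.1-fold (log2 −3.82 ± 0.10).

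Among the D cyclins, which partner the kinases Cdk4 and Cdk6 at the entry into the cycle, Ccnd1 and Ccnd2 fell. Ccnd1 had 154, 155 and 149 CPM with AZD8330, against 679, 704 and 701 CPM with DMSO (log2 −2.18 ± 0.03, edgeR adjusted p = 3.55e-14). Ccnd2 had 4.003, 2.42 and 4.03 CPM with AZD8330, against 24.8, 19.9 and 25.96 CPM with DMSO (log2 −2.76 ± 0.22). Both were low in every AZD8330 library, whereas Ccnd3 had 133, 128 and 128 CPM with AZD8330, against 141, 130.1 and 131 CPM with DMSO, with overlapping groups (log2 −0.05 ± 0.05, edgeR adjusted p = 0.403). Over the G1 control list, 11 of 21 tested genes fell, 8 of them by at least 2-fold, and 6 rose (median −0.58). Of all tested genes 31.7% fell and 29.1% rose. Rb1, the retinoblastoma protein that holds E2F factors in check, rose by log2 1.26 ± 0.04, while its relative Rbl1 fell by log2 −2.06 ± 0.10. The kinase inhibitors did not move together: Cdkn1b, which encodes p27, rose by log2 0.28 ± 0.05, Cdkn1a, which encodes p21, fell by log2 −0.84 ± 0.05, and Cdkn2c, which encodes p18, fell by log2 −1.68 ± 0.07.

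Ribosome biogenesis genes fell nearly as uniformly. Of 25 tested genes 23 fell, 19 of them by at least 2-fold, and none rose (median −1.39). Nop58, a core protein of the particles that guide rRNA methylation, had 73.3, 75.8 and 70.2 CPM with AZD8330, against 241, 236 and 226 CPM with DMSO (log2 −1.68 ± 0.04). Fbl, the methyltransferase fibrillarin of the same particles, had 88.7, 92.4 and 92.04 CPM with AZD8330, against 263, 262 and 251 CPM with DMSO (log2 −1.51 ± 0.04). Nolc1, a nucleolar phosphoprotein, fell by log2 −1.42 ± 0.04, and Mybbp1a, another nucleolar protein gene, by log2 −1.48 ± 0.05. In all 4 genes, picked by their small p, the groups were separate, as they were for 66.4% of all tested genes. In the Myc network, 4 of 15 tested genes rose and 5 fell, also near the shares of all tested genes. Srm, the spermidine synthase gene and a known Myc target, had 44.04, 37.9 and 39.9 CPM with AZD8330, against 198, 191 and 186 CPM with DMSO (log2 −2.24 ± 0.07). Mxd1, whose product competes with Myc for its partner Max, had 74.2, 78.6 and 80.2 CPM with AZD8330, against 18.3, 19.8 and 19.2 CPM with DMSO (log2 2.02 ± 0.06), and the Myc relative Mycl rose by log2 1.76 ± 0.06.

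OPC identity genes rose more often than they fell. Of 22 tested genes 12 rose, 6 of them by at least 2-fold, and 5 fell, none by that much (median 0.40). The shares of all tested genes were 29.1% up and 31.7% down. Olig2, the lineage transcription factor shown above, fell by log2 −0.22 ± 0.03. Sox10, a lineage factor needed for myelin genes, had 100.2, 97.2 and 95.3 CPM with AZD8330, against 47.9, 55.4 and 50.6 CPM with DMSO (log2 0.93 ± 0.09), and Sox6 rose by log2 0.99 ± 0.04. Tnr, which encodes the matrix protein tenascin-R, had 200.4, 193 and 192 CPM with AZD8330, against 33.2, 40.5 and 33.04 CPM with DMSO (log2 2.46 ± 0.08). Vcan, the proteoglycan versican, rose by log2 1.19 ± 0.03, and Ncald, a calcium sensor, by log2 1.27 ± 0.04.

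Genes of oligodendrocyte maturation were raised in the AZD8330 libraries. Of 22 tested genes 14 rose, 13 of them by at least 2-fold, and 2 fell (median 1.15), beside 10.5% of all tested genes that rose by that much. Gpr17, a receptor of newly committed oligodendrocytes, had 516, 508 and 505 CPM with AZD8330, against 55.7, 57.6 and 55.1 CPM with DMSO (log2 3.18 ± 0.04, edgeR adjusted p = 1.62e-14). Cnp, a myelin enzyme, had 381, 410.4 and 396 CPM with AZD8330, against 132, 131 and 128 CPM with DMSO (log2 1.60 ± 0.04). The groups of both genes, picked by their small p, were separate, as were those of 66.4% of all tested genes. Gjc3, a connexin of myelinating glia, rose by log2 2.15 ± 0.07, and Sirt2, a deacetylase found in myelin, by log2 1.09 ± 0.05. Mog and Mal, later myelin genes, are listed at 0 in all 6 libraries. A 0 in this table of estimates does not show that a gene is silent, since Mcl1, a survival gene of the BCL2 family that cells use widely, is listed at 0 in all 6 libraries too. Mbp, the myelin basic protein gene, had 8.71, 10.4 and 5.896 CPM with AZD8330, against 5.98, 5.897 and 3.93 CPM with DMSO, with overlapping groups (log2 0.66 ± 0.37, edgeR adjusted p = 0.145). Myrf, the transcription factor of myelination, was also low, with 2.67, 4.38 and 5.97 CPM with AZD8330, against 0.636, 1.94 and 1.14 CPM with DMSO (log2 1.80 ± 0.56), and did not pass without AZD8330 library C or DMSO library A (adjusted p = 0.0559 and 0.0578, edgeR's quasi-likelihood test). Without AZD8330 library A or B or DMSO library A, 1 gene of the list fell.

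**Figure D3:**
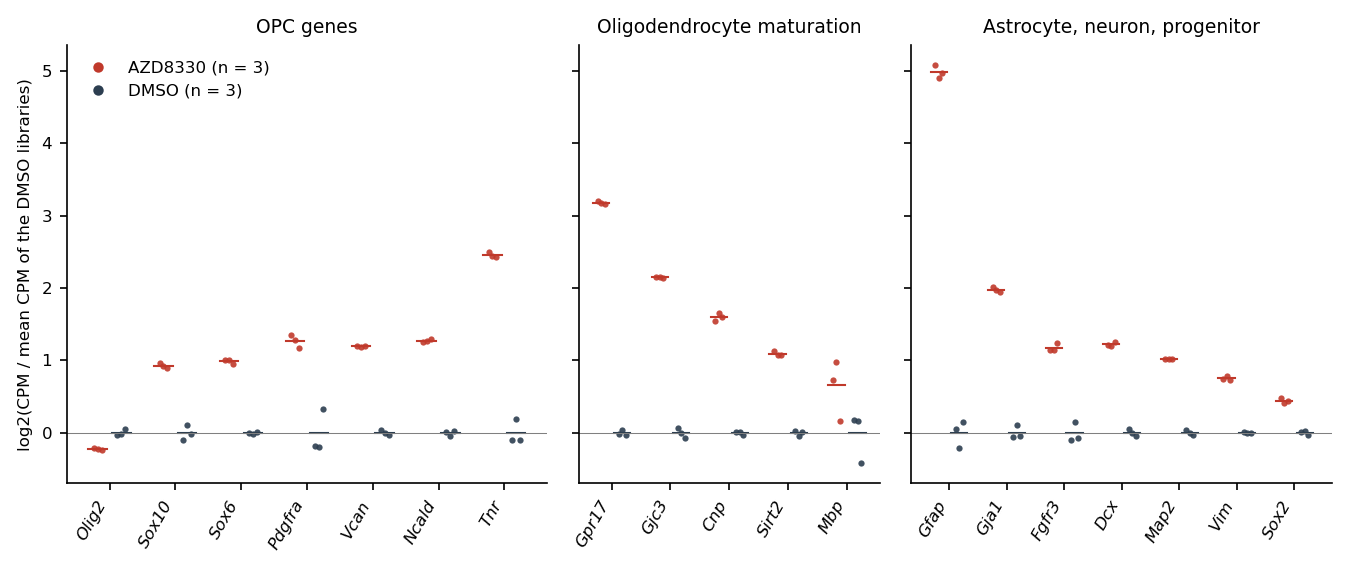
Level of OPC, oligodendrocyte maturation, and astrocyte, neuron and progenitor genes in each control OPC library, as log2 of CPM over the mean CPM of the 3 DMSO libraries (y axis). Red points are the 3 AZD8330 libraries and dark points the 3 DMSO libraries, with a bar at each group mean. Gfap stands highest at log2 4.99, Gpr17 follows at 3.18, and Olig2 lies just below its DMSO libraries.

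Markers of another glial type moved in the same direction. Of 13 astrocyte markers 11 rose, 6 of them by at least 2-fold, and none fell (median 1.18), and no marker was without counts. Their summed level was 4231 to 4364 CPM in AZD8330 libraries and 2436 to 2549 CPM in DMSO libraries. Gfap, the intermediate filament of astrocytes, had 139.7, 124 and 129.7 CPM with AZD8330, against 4.26, 3.55 and 4.58 CPM with DMSO (log2 4.99 ± 0.12, edgeR adjusted p = 2.47e-12). Gja1, which encodes connexin 43 of astrocyte gap junctions, had 926, 901 and 884 CPM with AZD8330, against 219.8, 246 and 221 CPM with DMSO (log2 1.98 ± 0.05). Both genes were high in every AZD8330 library. Whether astrocytes in the cultures or OPCs carry these transcripts, and what part they have in the other changes, was not tested.

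Of 10 tested neuron markers 6 rose and 1 fell, a fall that was lost when any one AZD8330 library, or DMSO library A, was left out (median 0.88), with a summed level of 2149 to 2162 CPM with AZD8330 and 1042 to 1098 CPM with DMSO. Dcx, a microtubule protein of young neurons that OPCs can also express, rose by log2 1.22 ± 0.04, and Map2, a dendrite protein, by log2 1.01 ± 0.04. Map2 alone averaged 1739 CPM with AZD8330 and 861 CPM with DMSO, which is most of the summed level, and none of its 6 values was whole. Which cells carry the neuron transcripts was not tested. Of 8 neural progenitor markers 5 rose and none fell (1 fell without AZD8330 library C), among them the filament gene Vim (log2 0.75 ± 0.03) and the transcription factor gene Sox2 (log2 0.45 ± 0.04). The other marker lists summed to low levels, with the same limit on genes listed at 0. The pluripotency list summed to 5.97 to 7.52 CPM with AZD8330 and 19.2 to 23.8 CPM with DMSO, and Pou5f1, Zfp42, Dppa5a, Utf1 and Dnmt3l are listed at 0, while Esrrb fell by log2 −2.42 ± 0.23 and Nanog rose by log2 2.13 ± 0.44, both from low levels. The mesenchymal list summed to 14.5 to 17.9 CPM with AZD8330 and 7.77 to 10.7 CPM with DMSO, with Acta2 up by log2 1.37 ± 0.20 and Tagln by log2 1.82 ± 0.44, and Col3a1, Pdgfrb and Lum listed at 0. The endothelial list summed to 6.23 to 7.78 CPM with AZD8330 and 5.94 to 8.59 CPM with DMSO, with Cldn5 listed at 0. None of 9 microglia markers reached the filter for testing, and their sum was 0.935 to 1.59 CPM with AZD8330 and 0.636 to 2.15 CPM with DMSO. Of the Schwann and neural crest list, which summed to 24.1 to 31.5 CPM with AZD8330 and 82.9 to 85.8 CPM with DMSO, both tested genes fell (1 without AZD8330 library A), with Pmp22, a myelin protein of peripheral nerve, down by log2 −1.73 ± 0.08. Pmp22 alone averaged 24.4 CPM with AZD8330 and 80.9 CPM with DMSO, which is most of that sum.

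In the Notch pathway, which keeps progenitors undifferentiated, 12 of 15 tested genes rose, 5 of them by at least 2-fold, and 1 fell, or 2 without AZD8330 library C (median 0.72). Hes5, a Notch target that represses neuronal genes, had 143, 125 and 128 CPM with AZD8330, against 14.9, 13.00 and 15.6 CPM with DMSO (log2 3.19 ± 0.07). The ligand gene Dll1 rose by log2 1.398 ± 0.06, the receptor gene Notch1 by log2 1.02 ± 0.05 and the Notch regulator Dtx4 by log2 0.94 ± 0.05. In the BMP and Id list 6 of 15 tested genes rose and 5 fell (3 without AZD8330 library B), beside 29.1% and 31.7% of all tested genes. Id4, an inhibitor of basic helix-loop-helix factors, had 46.3, 42.3 and 42.4 CPM with AZD8330, against 3.75, 3.95 and 3.58 CPM with DMSO (log2 3.53 ± 0.09), and Id2 rose by log2 1.34 ± 0.06. The ligand gene Bmp7 fell by log2 −1.401 ± 0.04 and the receptor gene Bmpr2 rose by log2 0.36 ± 0.04. In the Wnt list 4 of 13 tested genes rose and 4 fell, shares near those of all tested genes (29.1% and 31.7%). Apcdd1, an inhibitor of Wnt at the cell surface, had 449, 440.4 and 458 CPM with AZD8330, against 28.2, 25.6 and 23.3 CPM with DMSO (log2 4.12 ± 0.12), and Tcf7, a transcription factor of the pathway, had 2.22, 1.24 and 1.87 CPM with AZD8330, against 15.3, 14.7 and 17.2 CPM with DMSO (log2 −3.14 ± 0.22). The receptors split, with Fzd3 up by log2 0.81 ± 0.05 and Fzd1 down by log2 −1.19 ± 0.04.

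Sterol genes fell. Of 24 cholesterol genes 20 fell, 9 of them by at least 2-fold, and none rose (median −0.88). Of all tested genes 31.7% fell and 29.1% rose. Idi1, an isomerase of the isoprenoid steps, had 141, 159.6 and 167 CPM with AZD8330, against 354, 344 and 325 CPM with DMSO (log2 −1.13 ± 0.06, edgeR adjusted p = 2.54e-09), and Stard4, a sterol carrier gene, had 103, 102 and 112 CPM with AZD8330, against 237, 248 and 215 CPM with DMSO (log2 −1.15 ± 0.06). Every AZD8330 library lay below every DMSO library in both genes, which were picked by their small p. Groups were separate for 66.4% of all tested genes. Fatty acid synthesis genes split, with 9 of 17 tested genes up and 5 down. Fasn, the fatty acid synthase, fell by log2 −0.99 ± 0.04 and the elongase gene Elovl6 by log2 −1.11 ± 0.04, while the desaturase genes Scd2 and Fads2 rose by log2 0.60 ± 0.03 and log2 0.62 ± 0.04.

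In glycolysis 7 of 18 tested genes fell, none by 2-fold, and 3 rose (median −0.23), beside 31.7% and 29.1% of all tested genes. Hk1 alone rose by at least 2-fold (log2 4.96 ± 0.79), with AZD8330 libraries that varied widely and no whole value. Gpi1, the second enzyme of the path, fell by log2 −0.71 ± 0.03, Pgam1 by log2 −0.56 ± 0.03 and Tpi1 by log2 −0.47 ± 0.04, and the phosphofructokinase gene Pfkm rose by log2 0.43 ± 0.03. The hypoxia list, of genes that hypoxia-inducible factor (HIF) raises, had 6 of 16 tested genes up and 8 down (median −0.23). Ddit4, an inhibitor of mTORC1, had 381, 377 and 313 CPM with AZD8330, against 95.5, 89.1 and 105 CPM with DMSO (log2 1.89 ± 0.08), and Bnip3, which marks mitochondria for autophagy, rose by log2 0.91 ± 0.06. Egln1, the oxygen-sensing hydroxylase that marks HIF for destruction, fell by log2 −0.76 ± 0.04, and the cytokine gene Mif by log2 −0.57 ± 0.03. Of the 31-base words of Mif and Bnip3, 60.5% and 57.0% also occur in other genes. Vhl mRNA was 139.8, 137 and 138 CPM with AZD8330, against 109, 107 and 102 CPM with DMSO, a rise of log2 0.38 ± 0.05.

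Genes of amino acid supply and protein folding mostly fell. In the ATF4 list 13 of 21 tested genes fell, 2 of them by at least 2-fold, and 3 rose (median −0.54). Of all tested genes 31.7% fell and 29.1% rose. Mthfd2, a mitochondrial folate enzyme, had 20.5, 20.1 and 19.3 CPM with AZD8330, against 105, 101 and 92.5 CPM with DMSO (log2 −2.32 ± 0.07). Shmt2, which acts beside it, fell by log2 −0.99 ± 0.05 and the alanyl-tRNA synthetase gene Aars by log2 −0.73 ± 0.04, whereas the cystine transporter gene Slc7a11 rose by log2 0.95 ± 0.05. Of 15 ER chaperones 10 fell, none by 2-fold, and 1 rose (median −0.37). Hspa5, which encodes BiP, fell by log2 −0.66 ± 0.08, Pdia6 by log2 −0.66 ± 0.07 and Creld2 by log2 −0.79 ± 0.09, and the co-chaperone gene Dnajb9 rose by log2 0.62 ± 0.06.

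Lysosomal genes rose in small steps: 24 of 35 tested genes of the lysosome and autophagy list rose, 3 of them by at least 2-fold, and 1 fell (median 0.52). Over all tested genes 29.1% rose and 31.7% fell. Ctsl, the protease cathepsin L, had 177, 178 and 179 CPM with AZD8330, against 57.4, 48.8 and 57.4 CPM with DMSO (log2 1.70 ± 0.06), and Wipi1, which acts as autophagosomes form, had 97.9, 99.6 and 105 CPM with AZD8330, against 28.8, 30.2 and 33.7 CPM with DMSO (log2 1.71 ± 0.07). The membrane protein gene Scarb2 rose by log2 0.97 ± 0.03 and the cholesterol exporter gene Npc1 by log2 0.84 ± 0.03. All 17 tested genes of the FOXO and PI3K list changed, 10 upward and 7 downward (median 0.38), beside 60.8% of all tested genes that changed. Sesn3, a sestrin that restrains mTORC1, had 1702, 1651 and 1667 CPM with AZD8330, against 471, 479.8 and 463 CPM with DMSO (log2 1.83 ± 0.05), and Trib1, a pseudokinase, had 27.8, 29.2 and 29.3 CPM with AZD8330, against 119, 114 and 111 CPM with DMSO (log2 −1.998 ± 0.08). Fbxo32, a ubiquitin ligase gene that FOXO factors are known to induce and a gene named for its difference between the genotypes, had 70.6, 72.4 and 70.8 CPM with AZD8330, against 6.04, 6.23 and 6.37 CPM with DMSO (log2 3.52 ± 0.13).

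In the BCL2 family, which governs mitochondrial cell death, 5 of 10 tested genes rose and 2 fell, beside 29.1% and 31.7% of all tested genes. The first count was 3 without AZD8330 library C, DMSO library A or DMSO library B, and the second was 1 without AZD8330 library A or C or DMSO library A or B. Bcl2l11, which encodes the death-promoting BIM that ERK is known to mark for destruction, had 73.7, 67.9 and 72.1 CPM with AZD8330, against 24.4, 24.8 and 22.5 CPM with DMSO (log2 1.58 ± 0.06). Bax, an executor of the same path, fell by log2 −0.69 ± 0.04, and Bcl2l1, which encodes the protective BCL-XL, rose by log2 0.87 ± 0.18. Of 17 tested p53 targets 5 rose (3 without DMSO library B) and 9 fell (median −0.52), beside 29.1% and 31.7% of all tested genes. Gtse1, which is also a mitotic gene, fell by log2 −3.04 ± 0.08, the nuclease gene Aen by log2 −1.400 ± 0.04 and the kinase gene Plk2 by log2 −1.67 ± 0.06, and Sesn1 rose by log2 1.54 ± 0.06. Trp53, which encodes p53 itself, had 10.5, 5.82 and 11.2 CPM with AZD8330, against 67.7, 122 and 81.96 CPM with DMSO (log2 −3.30 ± 0.24), with none of the 6 values a whole number.

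The largest single changes were at genes of varied function. Among the 15 largest rises with separate groups and a mean of at least 5 CPM in the higher group, the protease gene Capn1 (calpain 1) had 23.4, 18.6 and 24.4 CPM with AZD8330, against 0.255, 0.201 and 0.787 CPM with DMSO (log2 5.74 ± 0.32). Padi2, which converts arginine to citrulline in proteins including myelin basic protein, had 112, 114 and 129.7 CPM with AZD8330, against 4.899, 3.89 and 3.43 CPM with DMSO (log2 4.85 ± 0.11). Serpinb1a, a protease inhibitor, had 31.7, 34.2 and 37.3 CPM with AZD8330, against 0.6999, 1.54 and 1.64 CPM with DMSO (log2 4.74 ± 0.23). These 3 genes were low in every DMSO library. Rises of a like size were given by Synpo2 (log2 4.73 ± 0.14), Stum (log2 4.57 ± 0.17), the muscarinic receptor gene Chrm4 (log2 4.51 ± 0.45), the desaturase gene Scd4 (log2 5.68 ± 0.52), Adamtsl4 (log2 4.89 ± 0.42), the Wnt ligand gene Wnt8b (log2 4.83 ± 0.55), Pi15 (log2 4.76 ± 0.45) and Itih3 (log2 4.93 ± 0.93). Galnt14 was at 8.64, 1.24 and 5.61 CPM with AZD8330, against 0, 0.134 and 0 CPM with DMSO, which is 2 estimated counts in all for DMSO, so no fold is given. Hk1 and Arsg, the last of the 15 beside Gfap, varied widely among AZD8330 libraries, at 4.07, 14.1 and 22.6 CPM for Hk1 and 2.35, 15.7 and 5.03 CPM for Arsg, and none of the 6 values of Hk1 was whole.

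Among the 15 largest falls, Tmem173, which encodes the innate immune adaptor STING, had 1.08, 1.504 and 1.22 CPM with AZD8330, against 48.2, 42.9 and 50.3 CPM with DMSO (log2 −5.21 ± 0.13, edgeR adjusted p = 3.29e-12). Ackr4, a receptor that scavenges chemokines, had 4.07, 3.79 and 3.67 CPM with AZD8330, against 58.5, 59.4 and 54.5 CPM with DMSO (log2 −3.90 ± 0.08). Hs3st2, an enzyme of heparan sulfate, had 1.02, 0.785 and 0.647 CPM with AZD8330, against 19.9, 18.03 and 19.1 CPM with DMSO (log2 −4.52 ± 0.27). All AZD8330 libraries of these genes held a small share of any DMSO library. Rapgef4, an exchange factor that cAMP activates, fell by log2 −4.10 ± 0.51, Prokr1, a prokineticin receptor gene, by log2 −4.81 ± 0.48, Gcnt4 by log2 −4.27 ± 0.29, Olfr618 by log2 −3.98 ± 0.36 and Klk14 by log2 −3.92 ± 0.39. The mitotic genes Ttk (log2 −4.51 ± 0.66) and Pttg1 (log2 −4.08 ± 0.71) and the repair gene Fignl1 (log2 −4.08 ± 0.78) had wider errors, and Smg6 (log2 −3.91 ± 0.95) had no whole value. Dusp6, Etv4 and Tk1 complete the 15.

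Shared sequence limits some of these estimates. Of the genes named by their changes here, 115 had values whole within 0.01 in all 6 libraries and 33 in none, which for a count estimated by Salmon means reads divided with another feature. Beside the genes already marked, the share of 31-base words found in another gene passed 20% at 62.2% for Tagln, 43.7% for Phyhd1, 38.7% for Klf7, 37.1% for Pgam1, 30.3% for Etv5, 28.2% for Ctsl, 27.1% for Idi1, 26.9% for H2-D1 and for Tapbp, 25.7% for Hes5, 23.9% for Rps6ka2, 23.1% for Spry1, 22.8% for Klk14, 22.3% for Ccnd1, 21.8% for Fbl, 21.6% for Gpi1 and 20.5% for Ifitm3. Of the 184 named genes that were tested, 180 passed the threshold, with 0.0456 the largest adjusted p among them (edgeR's quasi-likelihood test).

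The size of the response in control OPCs was set against that in CRISPR-Vhl OPCs, named for the gene Vhl, whose protein marks HIF for destruction. The 2 effects share no sample. In Vhl OPCs 51.4% of the tested genes changed. The effect differed between genotypes, by a test of the difference itself, for 1717 of 13450 genes (12.8%): it was more positive in control OPCs for 667 (4.96%) and more negative for 1050 (7.81%). For 79 genes AZD8330 raised the level in one genotype and lowered it in the other, each past the threshold.

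Cholesterol synthesis had the largest share of called differences of the lists. For 21 of its 24 tested genes the difference passed, and in all 21 the effect was more negative in control OPCs, where the median log2 change was −0.88, against 0.40 in Vhl OPCs. Idi1 fell in control OPCs, whereas in Vhl OPCs it had 349, 368 and 336 CPM with AZD8330, against 260.0, 258 and 247 CPM with DMSO (log2 0.46 ± 0.06), a difference of −1.59 ± 0.08 (adjusted p = 3.71e-07, edgeR's quasi-likelihood test). Stard4 averaged in Vhl OPCs 217 ± 13.5 CPM with AZD8330, against 203 ± 2.602 CPM with DMSO (SD, n = 3 each; log2 0.10 ± 0.06), a difference of −1.24 ± 0.08. Fasn changed by −0.99 ± 0.04 in control OPCs and by 0.03 ± 0.04 in Vhl OPCs, a difference of −1.02 ± 0.05. Glycolysis and hypoxia genes parted in the same sense: 7 of 18 and 9 of 16 tested genes had a more negative effect in control OPCs, and 1 and 2 a more positive one. Gpi1 changed by −0.71 ± 0.03 in control OPCs and −0.12 ± 0.02 in Vhl OPCs, and Egln1 by −0.76 ± 0.04 and 0.004 ± 0.03, with differences of −0.59 ± 0.04 and −0.76 ± 0.05. The starting levels were unlike. With DMSO, Gpi1 averaged 812 CPM in control OPCs and 2170 CPM in Vhl OPCs, and Egln1 138 and 752 CPM.

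Ribosome biogenesis genes fell further in control OPCs, with a more negative effect for 17 of 25 tested genes (median −1.39 in control OPCs and −0.85 in Vhl OPCs). With DMSO, Nop58 averaged 235 CPM in control OPCs and 175 CPM in Vhl OPCs, Fbl 259 and 206, Nolc1 267 and 215, and Mybbp1a 461 and 337. With AZD8330 the same genes averaged 73.1 and 72.8, 91.1 and 109, 99.9 and 112, and 165 and 175 CPM. Myc also fell further in control OPCs, at −1.49 ± 0.04 against −0.68 ± 0.03 in Vhl OPCs (difference −0.81 ± 0.05, adjusted p = 1.47e-06, edgeR's quasi-likelihood test). So did Jun, at −1.20 ± 0.04 against −0.43 ± 0.04. Mitotic genes went the other way: for 9 of 23 tested genes of the G2 and M phase list the fall was smaller in control OPCs (median −2.97 in control OPCs and −3.61 in Vhl OPCs), Mki67 among them (difference 0.64 ± 0.11). Of the feedback genes, Dusp6 fell further in control OPCs, at −4.31 ± 0.05 against −3.55 ± 0.05 in Vhl OPCs, and so did Spry1, at −3.09 ± 0.04 against −2.52 ± 0.04. Of the genes that rose, Hes5 had the larger log2 change in control OPCs (3.19 ± 0.07 against 1.84 ± 0.06 in Vhl OPCs), as did Bcl2l11 (1.58 ± 0.06 against 0.59 ± 0.06) and Fbxo32 (3.52 ± 0.13 against 1.67 ± 0.13), while Klf2 had the smaller (3.63 ± 0.15 against 5.32 ± 0.16). Hes5 started lower in control OPCs, at a mean of 14.5 CPM with DMSO against 47.9 CPM in Vhl OPCs. It also stayed lower there with AZD8330, at 132 against 172 CPM. Bcl2l11 started lower too (23.9 against 40.0 CPM with DMSO) and reached 71.3 against 60.2 CPM with AZD8330. For Gfap and Gpr17 the differences were −0.06 ± 0.20 and 0.04 ± 0.06, and neither passed the threshold.

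**Figure D4:**
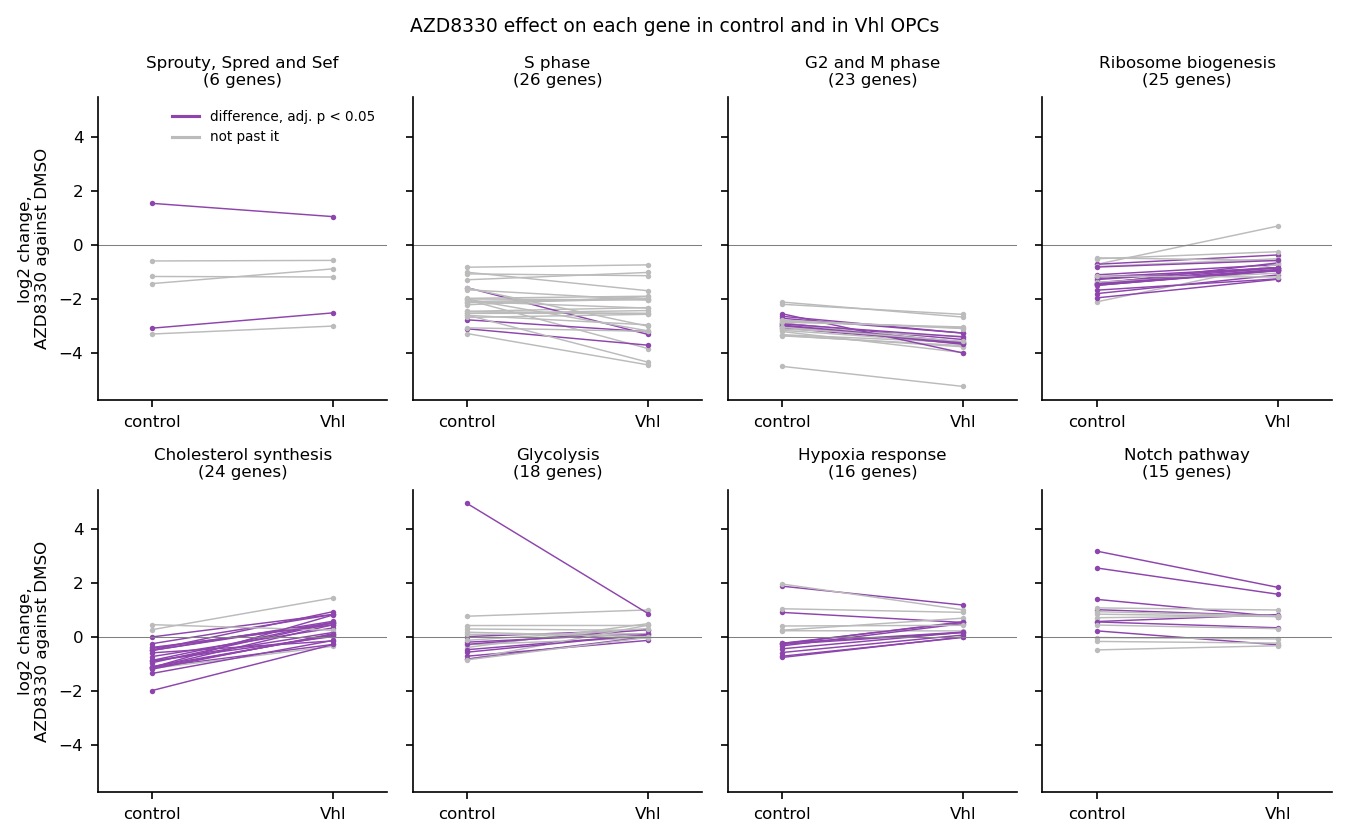
Log2 change of each tested gene of 8 lists between AZD8330 and DMSO in control OPCs (left) and in Vhl OPCs (right), with a line per gene. Purple lines are genes whose difference passed an adjusted p of 0.05 and grey lines the others. Most cholesterol genes lie below 0 in control OPCs and above 0 in Vhl OPCs, whereas the S phase and the G2 and M phase lines stay well below 0 in both.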

How the data were processed

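RNA of the 6 control OPC samples, and of the 6 matching Vhl OPC samples, was extracted with TRIzol, and libraries were made and sequenced by Novogene, per the labels' protocols. The authors deposited estimated counts per gene; Salmon 0.14.1 and mm10 are named in the submitters' processing notes, and no source used here gives the library kit, its strandedness or how transcripts were combined into genes. The deposited table is named as TPM, but its column totals differ (12391077 to 16349676), and 58.8% of its values above 0 are whole within 0.001. A fractional value means that Salmon divided reads between features with shared sequence, and strand and overlapping genes could not be checked.

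Counts were rounded, and genes whose mean over 12 libraries reached 1 CPM were tested in edgeR 4.0.16 (R 4.3.3) with TMM scaling, the 4 groups sharing a single fit. The threshold was an adjusted p of 0.05. The steps were tested on simulated data in which few genes changed, as many up as down. That simulation does not cover a response as wide as the one seen here. Limma 3.58.1, DESeq2 1.42.0 and the settings below served as alternatives. Positions and 31-base words shared between genes came from GENCODE M21 (GRCm38), and 27 rows that hold a date or digit as a name are not named. The members and lists were chosen with earlier results of these data known. Named are the 15 largest rises and falls, up to 4 genes per list by p (2 per marker list), a set of fixed genes, and the 8 largest differences between genotypes in each direction. Some genes that these rules pick are not reported here, and the listed genes Spry3 and Pdk1 were not analysed. Same-lettered AZD8330 and DMSO libraries did not deviate together (r −0.04, −0.03 and 0.02), so letters were not used to pair samples. Figures used matplotlib 3.10.9.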

Additional observations from a re-analysis of the deposited data

Results flagged for a closer look

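The AZD8330 effect differed between the genotypes, by the test of the difference itself (adjusted p under 0.05, edgeR's quasi-likelihood test), for 101 of the 184 named genes that were tested, beside 12.8% of all tested genes. Many were chosen for large changes or for this difference, so their share is a description. Each value here is the log2 change in control OPCs minus that in Vhl OPCs, from 3 samples a group.

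Among genes of the ERK pathway the difference was −0.76 for Dusp6, −0.98 for Dusp1, −0.57 for Spry1, −0.59 for Etv4, −0.46 for Etv1 and −0.25 for Map2k2, and on the positive side 0.25 for Dusp7, 0.49 for Il17rd, 0.66 for Erbb4, 0.32 for Ntrk2, 0.29 for Gab1 and 0.32 for Nf1. Dusp6, Dusp1, Spry1, Etv4 and Map2k2 thus fell further in control OPCs, Etv1 rose less there, and Dusp7 fell less. Immediate early and related genes gave −0.81 for Myc, −0.77 for Jun, −0.81 for Klf10, −1.69 for Klf2 and −0.51 for Cd44, against 0.52 for Btg2, 0.23 for Zfp36l1, 0.38 for Klf7 and 0.21 for Plat.

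In the cell cycle the values were −0.28 for Ccnd1, −1.02 for Ccnd2, −0.26 for Ccnd3 and −0.41 for Cdkn1a, and 0.40 for Rb1. The fall was smaller in control OPCs for Mcm5 (0.44), Ccna2 (0.60), Mki67 (0.64) and Top2a (0.49). Nucleolar and Myc-linked genes fell further in control OPCs, by −0.48 for Nolc1, −0.42 for Nop58, −0.59 for Fbl, −0.53 for Mybbp1a and −0.87 for Srm, while Mxd1 and Mycl rose further (0.85 and 0.33).

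Lipid genes gave −1.59 for Idi1, −1.24 for Stard4, −1.02 for Fasn, −0.86 for Elovl6 and −0.31 for Scd2. Glycolysis and hypoxia genes gave −0.59 for Gpi1, −0.66 for Pgam1, −0.55 for Tpi1, −0.76 for Egln1 and −0.65 for Mif, against 0.70 for Ddit4, 0.37 for Bnip3 and 0.27 for Vhl. The remaining metabolic and stress genes were Mthfd2 (−0.36), Aars (−0.20), Slc7a11 (0.90), Dnajb9 (0.29), Ctsl (0.31), Scarb2 (0.33), Wipi1 (0.76), Npc1 (0.23), Sesn3 (0.41), Sesn1 (0.48), Bcl2l11 (0.98), mt-Nd1 (0.23) and mt-Nd5 (0.31).

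The effect was more positive in control OPCs for 6 of 22 tested OPC identity genes, 5 of 22 of oligodendrocyte maturation and 3 of 13 astrocyte markers. It was more negative there for 1, 1 and 0 genes of these lists. Over all tested genes it was more positive for 4.96% and more negative for 7.81%. Among the named glial genes the difference was 0.83 for Tnr, 0.60 for Ncald, 0.25 for Sox6, 0.17 for Vcan, 0.44 for Cnp, 0.34 for Sirt2 and 0.33 for Gja1, and it was −0.48 for Gjc3 and −0.18 for Vim, which rose less there. Dcx and Map2 gave 0.63 and 0.30. Fate signalling genes gave 1.34 for Hes5, 0.64 for Dll1, 0.23 for Notch1, 0.66 for Id4, 0.88 for Id2 and 0.22 for Fzd3, against −0.49 for Fzd1 and −1.21 for Tcf7. Surface and matrix genes gave 0.63 for Kcnd2, 0.57 for Robo2, 0.41 for Itgb8 and 0.48 for Itga7, against −1.04 for Tnc, −0.49 for Unc5b and −0.71 for Pmp22.

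The genes named for the size of this difference were mostly low. Fbxo32 differed by 1.84, Myh11, a smooth muscle myosin, by 1.80, Fmnl1 by 2.99, Phyhd1 by 2.02, Vwa5b1 by 1.999 and Hk1 by 4.08. On the negative side Cyp3a13, a cytochrome P450, differed by −3.55, Prokr1 by −2.69, Trp53 by −2.69, Npas1 by −2.56 and Sertm1 by −2.28. The fitted value of Cyp3a13 has no firm size, since in Vhl OPCs it had 10.4, 8.26 and 9.78 CPM with AZD8330, against 0.1596, 0 and 0 CPM with DMSO, and that of Npas1 rests in control OPCs on 12 estimated counts with AZD8330 and 14 with DMSO. Wdr41 differed by 9.68, but in control OPCs it had 39.5, 0.262 and 0.431 CPM with AZD8330, against 0.127, 0.268 and 0.787 CPM with DMSO, and in Vhl OPCs 0.553, 0.984 and 0.146 CPM with AZD8330, against 0.798, 0.683 and 40.3 CPM with DMSO, so its value rests on a single library in each genotype.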

How the results depend on the processing

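The number of changed genes kept within 1.5 times of 8172 in every alternative run. It was 8029 with DESeq2, 8145 with DESeq2 size factors in edgeR, 8175 scaled by total counts, 8237 with limma, 8398 with no filter on low counts, 7083 with a mean of at least 5 CPM, 8055 with only the 6 control OPC samples, and 7613 to 7782 with each control OPC replicate left out. Scaled by total counts, 4262 genes rose and 3913 fell, against 3911 and 4261 with TMM. With TMM kept, 4033 rose and 4022 fell with only the 6 control OPC samples, and 3550 and 3533 with a mean of at least 5 CPM. The direction with more genes thus depended on the scaling, the filter and the samples used. With a mean of at least 5 CPM, 1786 genes changed by at least 2-fold and 910 rose by that much, against 2711 and 1416 at the filter of 1 CPM. Fewer genes are tested at that filter (10072). The number of genes whose effect differed between genotypes, 1717, lay between 1245 and 1813 in the alternatives. With a replicate block on the letters A to C, 8086 genes changed, 3847 upward and 4239 downward, and the letters did not pair the samples.

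Of 2554 values of named genes under the alternatives, 2539 kept their direction and their side of the threshold, 10 lost the call, 4 gained it and 1 changed sign: Wdr41 ran from −0.16 to 6.04 as single replicates were left out, with the lowest value without AZD8330 replicate A. The lost calls were of Etv5 (adjusted p = 0.0656 with limma, 0.0746 and 0.0736 without AZD8330 replicate A or B), Myrf and Wdr41, and the gained ones of Map2k1 (scaled by total counts, at 5 CPM and with 6 samples) and Mbp (with 6 samples), all from limma, edgeR or DESeq2 fits over all genes. Of 1120 counts of list members that rose or fell, 59 moved by over 1.5 times, all from 8 members or fewer, and the cause was not tested. Depth limits low genes such as Etv5, which had 2 estimated counts over the AZD8330 libraries.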

Other observations

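Genes for the cell surface and its surroundings also moved with AZD8330 in control OPCs. Of 21 tested matrix and integrin genes 11 rose, 5 of them by at least 2-fold, and 5 fell, 2 of them by that much (median 0.58). Over all tested genes 29.1% rose and 31.7% fell, with 10.5% and 9.63% by at least 2-fold. Tnc, which encodes the matrix protein tenascin-C, had 113, 114 and 118 CPM with AZD8330, against 741, 780.5 and 756 CPM with DMSO (log2 −2.73 ± 0.04), and its AZD8330 libraries lay far below its DMSO libraries. Col6a1, a chain of collagen VI, had 102, 95.7 and 87.4 CPM with AZD8330, against 14.2, 14.1 and 16.3 CPM with DMSO (log2 2.68 ± 0.08). The integrin genes Itgb8 and Itga7 rose by log2 1.45 ± 0.03 and log2 2.54 ± 0.08.

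Of 18 tested channel genes 9 rose and 5 fell (median 0.50), beside 29.1% and 31.7% of all tested genes. Kcnj10, the inward rectifier Kir4.1 of glia, had 528, 539 and 522 CPM with AZD8330, against 145, 140.0 and 135 CPM with DMSO (log2 1.92 ± 0.05), and Kcnd2, a channel of A-type potassium current, rose by log2 1.397 ± 0.04. Kcnc1, a fast potassium channel, fell by log2 −1.32 ± 0.06. Of 25 tested axon guidance genes 14 rose and 5 fell (median 0.35), with the Slit receptor gene Robo2 up by log2 1.54 ± 0.06, the plexin gene Plxnb3 by log2 1.66 ± 0.08 and the ephrin receptor gene Epha5 by log2 1.22 ± 0.06, and the netrin receptor gene Unc5b down by log2 −1.79 ± 0.11.

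Of 14 tested genes of interferon response and antigen presentation 6 rose and 2 fell (median 0.30), beside 29.1% and 31.7% of all tested genes. Beside Tmem173, Ifitm3 fell by log2 −1.02 ± 0.16, and the antigen presentation genes Tapbp and H2-D1 rose by log2 1.33 ± 0.05 and log2 0.51 ± 0.10. Of 13 mitochondrially encoded genes 2 rose and 2 fell, counts that ran from 1 to 5 as single libraries were left out, with changes that stayed small: mt-Nd5 rose by log2 0.19 ± 0.05 and mt-Nd1 fell by log2 −0.27 ± 0.04.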
